A study of Mus musculus with 20 samples.

Results

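The 41 genes described here mark T cells, natural killer (NK) cells, B cells and plasma cells, the lymphocytes of adaptive and early innate immunity. They were taken from a list of lymphocyte genes that was chosen with earlier results of these data known. The genes were matched by symbol to the 25700 gene identifiers of the count tables, and all 41 had counts. Counts of calls among them, and among the other gene lists, are therefore descriptions that are not independent of the data. The study sequenced 20 stranded poly(A) RNA libraries of mice, 5 in each of 4 groups: untreated controls (titled Control), controls given alkali therapy (Control_late), untreated oxalate mice (Oxalate) and oxalate mice given alkali therapy (Oxalate_late). The series names bicarbonate as the alkali and crystal nephropathy, kidney injury by crystals, as the disease; here oxalate stands for the disease groups. The labels state no tissue, strain, sex, age, dose or time, do not explain the word "late", and do not say whether each library is a separate mouse, so p-values measure the spread between these libraries, which may be in part technical. The tubule, duct and glomerulus genes of a 13-gene kidney epithelium list were summed in CPM (the share of a library's counts, scaled to 1000000). The sums were 14000 to 16300 CPM in untreated and 14600 to 16500 CPM in alkali-treated controls. They were lower, at 7710 to 12400 CPM, in untreated oxalate libraries, and 9940 to 15100 CPM in alkali-treated ones.

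T cells recognise antigen through a receptor whose variable chains signal through the CD3 proteins, and the coreceptors CD4 and CD8 divide them into helper and cytotoxic lineages. NK cells kill without such a receptor and carry perforin and granzymes, which cytotoxic T cells also use. B cells bind antigen with a surface antibody that signals through CD79A and CD79B. Plasma cells, their progeny, secrete antibody, only some of which is joined by the J chain. A healthy kidney holds few lymphocytes, and T cells gather between the tubules in many forms of chronic injury. In bulk RNA, fewer cells of a type and less RNA per cell cannot be told apart.

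Total counts ran from 25547840 to 39550689 per library, and the tests covered 15430 genes that passed a filter on low counts. Of the 41 genes, 37 passed, and Ifng, Gzma, Gzmb and Ncr1 did not. The filter looked over all 20 libraries, so a gene near 0 in controls could pass through its oxalate counts alone. Foxp3, for example, had 0 to 2 counts in untreated control libraries and 48 to 169 in untreated oxalate libraries. The number of tested genes called higher with oxalate, and their median fold, may therefore lean upward. Calls rest on edgeR's quasi-likelihood test, with p adjusted by Benjamini and Hochberg over all tested genes and a threshold of 0.05. Values per library are in CPM scaled by TMM, and are given in the order of library numbers 13, 19, 26, 35 and 9 for untreated controls, 1, 27, 37, 4 and 7 for alkali-treated controls, 12, 3, 32, 39 and 40 for untreated oxalate, and 2, 30, 33, 5 and 8 for alkali-treated oxalate. Among the alkali-treated oxalate libraries, number 2 was the lowest in 31 of the 37 tested genes and number 33 the highest in 24. Adipoq, made by fat cells, exceeded 1 CPM in 6 libraries spread over all 4 groups and reached 35.4 CPM in library 33.

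In untreated oxalate mice, 31 of the 37 tested lymphocyte genes were called higher than in untreated controls and 0 lower, with a median log2 fold change of 2.14. Of all 15430 genes, 49.4% were called in this comparison, 26.4% higher and 23.1% lower, and the median over all genes was 0.00. Of the called genes 53.3% were higher; with total counts in place of TMM that share was 85.1%, the median over all genes was 0.30, and 33 of the 37 lymphocyte genes were higher and 0 lower. For 28 of the 37 genes, all 5 oxalate libraries lay above all 5 controls, as they did for 18.5% of all tested genes. All 19 T cell genes were called, against 3 of 6 B cell genes and 3 of 4 plasma cell genes. Of the 8 NK and cytotoxic genes, 5 were tested and 3 called. The 2 tested helper factors (Gata3 and Tbx21) and the lymphotoxin gene Ltb were also called. The plot of fold changes by role gives each gene.

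**Figure D1:**
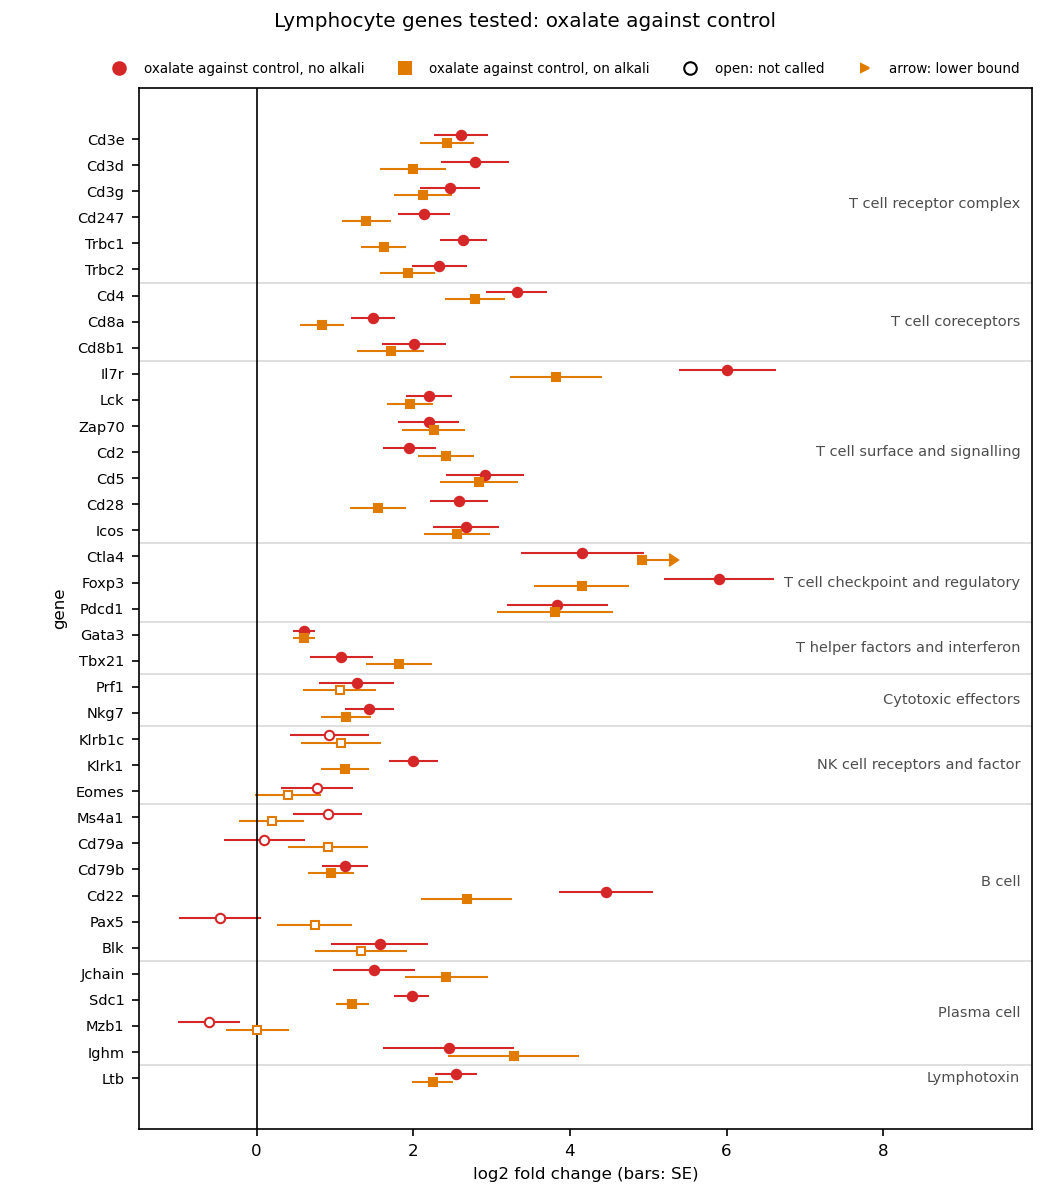
Log2 fold changes with SE of the 37 tested lymphocyte genes, oxalate against control, without alkali (circles) and on alkali (squares), grouped by role; filled symbols were called and the arrow for Ctla4 marks a lower bound. The 19 T cell genes were called in both comparisons, while B cell and NK genes fell on both sides of the threshold.

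The T cell receptor complex rose as a whole, with 6 of 6 genes called and log2 fold changes from 2.14 (Cd247, the zeta signalling chain) to 2.79 (Cd3d). Cd3e, the epsilon chain shared by all T cells, stood at 0.423, 0.499, 0.24, 0.568 and 0.641 CPM in untreated controls. In untreated oxalate libraries it stood at 2.92, 2.13, 2.8, 2.74 and 3.91 CPM. No oxalate library overlapped the controls, and the log2 fold change was 2.61 ± 0.34 (SE, adjusted p 7.29e-06). Cd3e, Cd3d and Cd3g lie within a single cluster on chromosome 9 (GRCm38, 44969572 to 45009627), and their folds differed by less than their SEs. Trbc1 and Trbc2, the constant segments of the receptor's beta chain, are near-identical copies between which counting may split reads; their log2 fold changes were 2.64 ± 0.30 and 2.33 ± 0.35 (SE). Exons of Cd247 overlap those of Pou2f1 on the other strand, and the strand setting of the counting is not given in the sources used here.

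The coreceptors of both lineages rose, with the larger value in Cd4. Cd4 stood at 0.55, 0.606, 0.548, 0.811 and 0.98 CPM in untreated controls, and at 8.63, 6.09, 4.25, 4.76 and 11.2 CPM in untreated oxalate libraries. Its log2 fold change was 3.32 ± 0.39 (SE, adjusted p 2.04e-06). Cd8a, the alpha chain of CD8, stood at 1.99, 1.07, 0.992, 1.46 and 2.3 CPM in controls, and at 2.84, 3.2, 6.9, 3.6 and 5.4 CPM in oxalate libraries. Its log2 fold change was 1.49 ± 0.28 (SE, adjusted p 0.000259). Cd8b1, the partner chain, rose by 2.01 ± 0.41 (SE). The Cd4 to Cd8a count ratio was 0.277 to 0.567 in untreated controls and 0.319 to 0.639 in alkali-treated controls. It was 0.616 to 3.04 in untreated oxalate libraries, with library 32, the highest in Cd8a, lowest, and 0.5 to 2.66 on alkali. Some dendritic cells carry these coreceptors too. Of 10 dendritic cell markers 9 rose. The 10 summed to 85.2 to 327 CPM in untreated oxalate libraries against 26.7 to 32.4 CPM in untreated controls. Itgax alone stood at 104, 78.9, 28.9, 58.6 and 243 CPM in these oxalate libraries. In untreated controls Itgax stood at 3.68, 4.81, 3.35, 3.57 and 3.73 CPM. The part of these markers in the Cd4 shift was not tested.

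The surface and signalling genes were called in 7 of 7 cases. Lck and Zap70, the kinases that start receptor signalling, each rose by 2.20 on the log2 scale (SE 0.29 and 0.39). Cd28 and Icos, the costimulatory receptors, rose by 2.58 ± 0.37 and 2.67 ± 0.42, and the adhesion and tuning receptors Cd2 and Cd5 by 1.95 ± 0.34 and 2.92 ± 0.50 (SE). Il7r, the receptor for the survival cytokine IL-7, stood apart. It was at 0.593, 0.642, 0.376, 0.122 and 0.264 CPM in controls and at 21.7, 18.6, 6.93, 16.1 and 66.3 CPM in oxalate libraries. Its log2 fold change of 6.01 ± 0.62 (SE, adjusted p 9.02e-07) was the largest of the 37.

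The 3 checkpoint and regulatory genes rose, with a median log2 fold change of 4.16. Foxp3, the factor that defines regulatory T cells, stood at 0, 0.0356, 0.0684, 0.0811 and 0 CPM in controls, where 2 libraries held no count. In oxalate libraries it stood at 2.95, 1.93, 1.4, 2.25 and 3.86 CPM, a log2 fold change of 5.90 ± 0.70 (SE, adjusted p 2.7e-06). Foxp3 counts were 0.317 to 0.472 of the Cd4 counts in untreated oxalate libraries and at most 0.125 in untreated controls. On alkali they were 0.239 to 0.504 in oxalate libraries and up to 0.267 in controls, with overlap. Exons of Foxp3 overlap those of Ppp1r3f and Ccdc22 on the other strand. Pdcd1, the inhibitory receptor PD-1, stood at 0.169, 0.0356, 0.137, 0.0406 and 0.301 CPM in controls. In oxalate libraries it stood at 3.48, 1.76, 0.932, 0.959 and 2.88 CPM, with no overlap and a log2 fold change of 3.84 ± 0.64 (SE). Ctla4, which competes with CD28 for its ligands, was at 0 in 3 of 5 controls, reached 0.562 to 2.65 CPM in oxalate libraries and rose by 4.16 ± 0.78 (SE). Control 26 held 8 of the 9 control counts, and without it the log2 fold change was 6.53 (adjusted p 6.63e-05). Cd28, Ctla4 and Icos are neighbours on chromosome 1 (GRCm38, from 60716800).

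**Figure D2:**
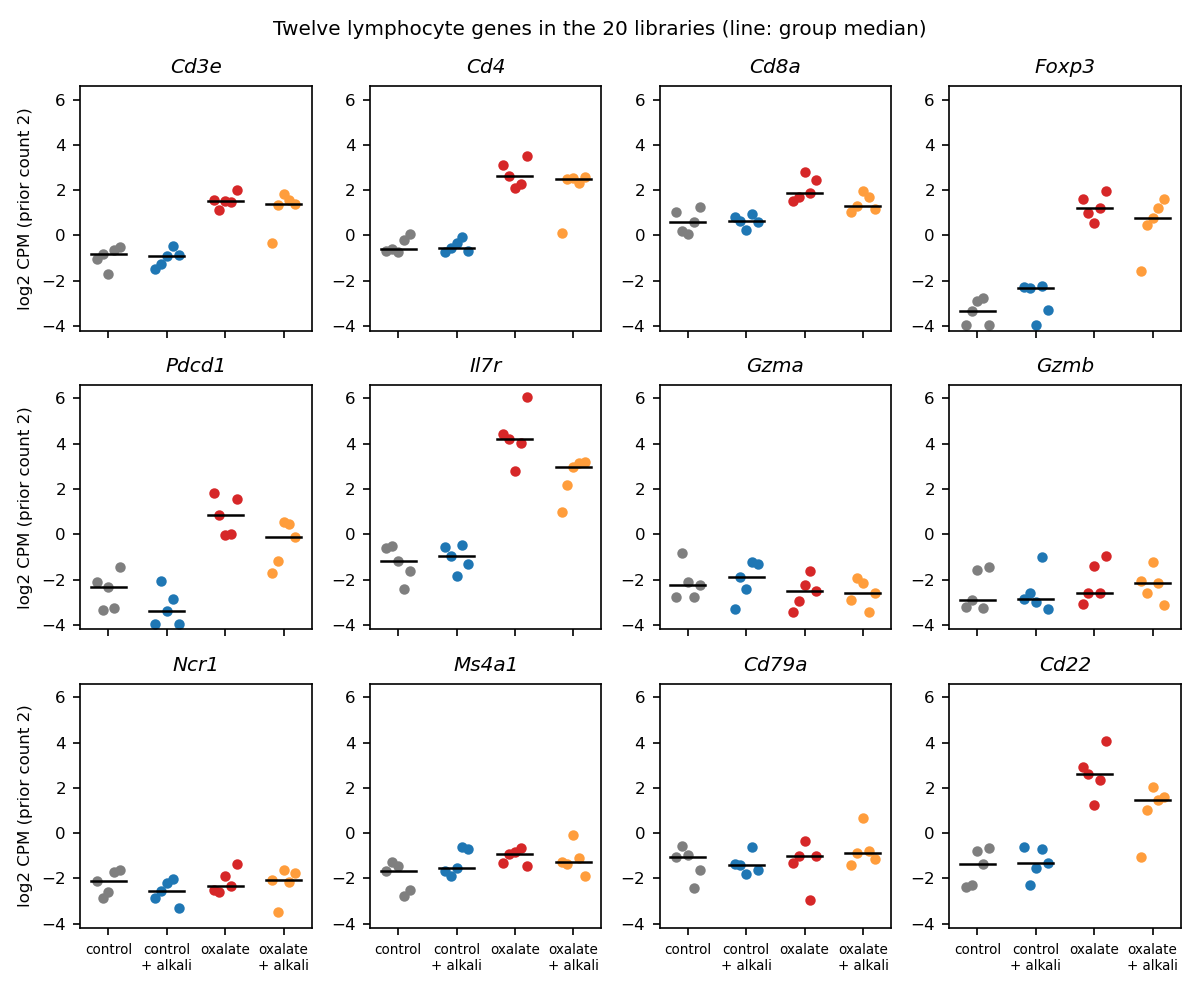
Log2 CPM (prior count 2) of 12 lymphocyte genes in the 20 libraries by group, with the group median as a line. All untreated oxalate libraries lay above all untreated controls in Cd3e, Cd4, Cd8a, Foxp3, Pdcd1, Il7r and Cd22, while Gzma, Gzmb, Ncr1, Ms4a1 and Cd79a overlapped. Of the genes that separated, alkali-treated oxalate library 2 fell among the controls in Pdcd1 and Cd22. In Cd8a, alkali-treated oxalate libraries 2 and 8 fell below the highest untreated control.

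The helper factors moved less. Gata3, the factor of type 2 helper T cells, is also a gene of kidney collecting ducts, and it stood at 12.5, 15, 20.6, 15.2 and 15.8 CPM in controls, far above Cd3e per kilobase of exon (3.82 against 0.122 CPM per kilobase, medians). In oxalate libraries it stood at 21.3, 25.6, 23.2, 26.8 and 22.9 CPM, a log2 fold change of 0.60 ± 0.14 (SE, adjusted p 0.00214). Tbx21, the type 1 helper factor, rose by 1.08 ± 0.40 (SE, adjusted p 0.032) with overlapping groups; the call was lost without any of Control 13, 19, 26 or 35 or Oxalate 32, 39 or 40 (adjusted p up to 0.0767). Its target Ifng held too few counts to test. Ifng stood at 0.0847, 0.0713, 0.0684, 0.0811 and 0.0754 CPM in controls and at 0.139, 0.166, 0.0582, 0 and 0.16 CPM in oxalate libraries, so a change was not detectable at this depth. Ltb, the lymphotoxin subunit that organises lymphoid tissue, stood at 0.72, 0.82, 0.479, 0.649 and 0.452 CPM in controls and at 3.9, 2.3, 3.79, 4.3 and 4 CPM in oxalate libraries. Its log2 fold change was 2.55 ± 0.27 (SE, adjusted p 8.13e-07).

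Of the genes of killing, Prf1 and Nkg7 rose and both granzymes held too few counts to test. Gzma, granzyme A, stood at 0.0847, 0.499, 0.171, 0.0811 and 0.151 CPM in controls and at 0.0278, 0.0666, 0.146, 0.265 and 0.114 CPM in oxalate libraries. Gzmb, granzyme B, stood at 0.0423, 0.0713, 0.274, 0.0406 and 0.301 CPM in controls and at 0.0557, 0.0999, 0.32, 0.0992 and 0.457 CPM in oxalate libraries. Oxalate and control libraries overlapped for both genes. Prf1, perforin, rose by 1.28 ± 0.48 (SE, adjusted p 0.0309), a call lost in turn without Control 19, 35 or 9 or Oxalate 12 or 32 (adjusted p up to 0.0718). The call was also lost without the filter on low counts (adjusted p 0.054) and without the 6 libraries with Adipoq above 1 CPM (adjusted p 0.13). Nkg7, a granule protein, rose by 1.44 ± 0.31 (SE, adjusted p 0.000898).

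Of the NK genes, Klrk1 was called. Klrk1, the activating receptor NKG2D that CD8 T cells share, rose by 2.0 ± 0.31 (SE, adjusted p 4.51e-05). Klrb1c, the NK1.1 receptor, stood at 0.169, 0.143, 0.137, 0.203 and 0.452 CPM in controls and at 0.25, 0.466, 0.204, 0.529 and 0.663 CPM in oxalate libraries, with overlap and an adjusted p of 0.129. It was called without Control 9 (1.37, adjusted p 0.0443) and with total counts in place of TMM (1.26, adjusted p 0.0442). It was also called without the 6 libraries with Adipoq above 1 CPM (1.42, adjusted p 0.0447). Ncr1, the receptor NKp46 that is most specific to NK cells, stood at 0.169, 0.0713, 0.103, 0.243 and 0.264 CPM in controls. In oxalate libraries it stood at 0.111, 0.0999, 0.204, 0.132 and 0.32 CPM, within the range of the controls except library 40. Eomes, an NK and memory T cell factor, had a log2 fold change of 0.77 ± 0.46 (SE, adjusted p 0.166).

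Promoter sequences of 29 of the 41 genes were in the RefSeq table (GRCm38.p6), each from 250 bases before to 50 after the start; the others were Cd4, Cd8b1, Cd2, Cd28, Icos, Ms4a1, Cd79b, Blk, Mzb1, Ighm, Trbc1 and Trbc2. The core letters TGTGGT, bound by RUNX factors, were searched on both strands and found in 7 of 8 NK and cytotoxic promoters, 2 of 12 T cell promoters and 0 of 3 B cell promoters, against 16.9% of 27025 promoters. The ETS core AGGAAG was found in 9 of 12 T cell and 3 of 8 NK and cytotoxic promoters, against 35.1% of all; no RUNX match overlapped an ETS match in these genes. The octamer ATTTGCAT was in 0 of the 29 (1.75% of all) and TATAAA in Ctla4, Ifng and Foxp3 (14.2% of all). Such matches describe letters, not binding. The 3 stretches of 200 bases upstream of the start printed here were chosen because their genes took different courses: Cd3d rose, while Gzmb and Ncr1 overlapped the controls at 2 to 20 and 3 to 14 counts in untreated oxalate libraries. They lie at chr9:44981586-44981785 (plus strand), chr14:56262335-56262534 (minus strand) and chr7:4337515-4337714 (plus strand), outside annotated exons, and are printed 5′ to 3′ with RUNX and ETS matches in capitals.
Cd3d: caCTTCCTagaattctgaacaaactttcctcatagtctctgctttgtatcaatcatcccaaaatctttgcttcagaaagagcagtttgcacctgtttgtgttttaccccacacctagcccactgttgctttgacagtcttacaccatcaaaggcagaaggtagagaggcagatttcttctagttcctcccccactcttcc
Gzmb: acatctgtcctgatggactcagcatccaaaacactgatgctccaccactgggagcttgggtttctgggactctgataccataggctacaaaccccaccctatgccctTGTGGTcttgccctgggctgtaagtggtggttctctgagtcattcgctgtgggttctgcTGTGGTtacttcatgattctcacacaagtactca
Ncr1: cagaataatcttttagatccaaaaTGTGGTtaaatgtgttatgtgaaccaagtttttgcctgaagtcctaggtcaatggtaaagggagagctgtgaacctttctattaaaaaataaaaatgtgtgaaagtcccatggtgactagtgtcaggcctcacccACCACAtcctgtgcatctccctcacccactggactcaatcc
The Cd3d stretch held an ETS match 198 bases before the start. A further Cd3d ETS match, from 5 bases before the start, ran past the end of the stretch and is not in capitals. The Gzmb stretch held RUNX matches 93 and 34 bases before the start. The Ncr1 stretch held RUNX matches 176 and 41 bases before the start.

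The B cell genes split. Cd79a, a signalling chain of the B cell receptor, stood at 0.423, 0.606, 0.445, 0.122 and 0.264 CPM in controls and at 0.334, 0.433, 0.728, 0.0661 and 0.434 CPM in oxalate libraries, a log2 fold change of 0.10 ± 0.52 (SE, adjusted p 0.886). Ms4a1, the CD20 antigen, stood at 0.254, 0.356, 0.308, 0.0811 and 0.113 CPM in controls and at 0.334, 0.466, 0.495, 0.562 and 0.297 CPM in oxalate libraries (0.91 ± 0.44, SE, adjusted p 0.0916). With total counts in place of TMM it was called (1.19, adjusted p 0.0335). Pax5, the B lineage factor, had a log2 fold change of −0.47 ± 0.52 (SE, adjusted p 0.467). Groups overlapped for all of these. Cd79b, the partner of Cd79a, stood at 0.847, 0.82, 0.856, 1.01 and 0.49 CPM in controls and at 1.89, 1.46, 1.05, 1.72 and 2.65 CPM in oxalate libraries, and rose by 1.13 ± 0.29 (SE, adjusted p 0.00305). Blk, a B cell kinase also found in gamma-delta T cells, rose by 1.57 ± 0.62 (SE, adjusted p 0.041) with overlapping groups, and the call was lost without any of Control 19, 35 or 9 or Oxalate 39 or 40 (adjusted p up to 0.149). It was also lost without the filter on low counts (adjusted p 0.056).

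Cd22, an inhibitory receptor of B cells, had the largest fold of the 6 B cell genes. It stood at 0.127, 0.143, 0.513, 0.325 and 0.565 CPM in controls and at 7.43, 6.12, 2.3, 5.03 and 16.7 CPM in oxalate libraries, a log2 fold change of 4.46 ± 0.60 (SE, adjusted p 8.54e-06). The untreated oxalate libraries had the same order in Cd22 as in Il7r, highest in 40 and lowest in 32, an order that Cd4, Cd28, Icos, Cd247 and Sdc1 shared.

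Among the plasma cell genes, Ighm, the constant region of IgM, stood at 6.94, 6.7, 6.33, 6.29 and 5.73 CPM in controls and at 71, 14.8, 27.6, 33 and 28.5 CPM in oxalate libraries. Its log2 fold change was 2.45 ± 0.84 (SE, adjusted p 0.0217), and without Oxalate 12 it was 2.02 (adjusted p 0.068). Jchain stood at 4.61, 3.31, 3.18, 4.46 and 4.3 CPM in controls and at 9.85, 4.53, 16.7, 12.2 and 12.8 CPM in oxalate libraries, where library 3 fell among the controls. It rose by 1.5 ± 0.52 (SE, adjusted p 0.0219), and the adjusted p was 0.0589 without Oxalate 32 and 0.0538 without Oxalate 40. Sdc1, syndecan-1, marks plasma cells and is also made by epithelium. It stood at 9.06, 10.2, 12.1, 12.2 and 10.9 CPM in controls and at 46.3, 41.7, 25.4, 37.4 and 63.5 CPM in oxalate libraries, a log2 fold change of 1.98 ± 0.22 (SE, adjusted p 1.14e-06). Mzb1, a chaperone of antibody assembly, did not pass (−0.61 ± 0.40, SE, adjusted p 0.215).

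Genes outside the 41 gave the following counts for untreated oxalate against untreated control. Of 26 other T cell genes tested, 19 were called higher, among them Lcp2 (2.66), Il2rg (2.12) and Tcf7 (2.24, log2 fold changes), and 2 lower, among them Bcl11b (−0.68); the list's median was 1.88. Of 9 exhaustion and checkpoint genes 8 rose (median 2.12), including the ligands Cd86 (2.24) and Cd80 (3.27). This list holds ligands as well as receptors, and which cells made its RNA, or that of Lcp2 and Il2rg, was not tested. Of 5 gamma-delta T cell genes 4 rose (median 2.1), with Blk counted here too. Of 13 other NK and cytotoxic genes 12 rose (median 2.07), among them Tyrobp (3.71), Ccl5 (2.06), Runx3 (2.27) and Fcgr4 (2.07), of which Tyrobp and Fcgr4 are also myeloid genes. Of 13 other B cell genes 10 rose (median 2.04), among them Cd74 (2.31), Spib (3.55), Btk (2.78) and Cd37 (2.78), which are also used by dendritic cells or macrophages. Of 16 other plasma cell and antibody genes 11 rose (median 1.53), among them Tnfrsf13b (2.46), Irf4 (1.99), Igha (1.41) and Ighg1 (3.34), while Xbp1, the factor of antibody secretion, had 0.08 (adjusted p 0.742).

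Genes that draw or sustain lymphocytes were set against the 26.4% of all genes called higher. Of 16 lymphocyte chemokines and receptors 14 were called higher and 0 lower (median 2.09), among them Cxcl16 (1.58), Ccl5 (2.06) and Ccl20 (4.63). Of 10 survival and differentiation cytokine genes 6 rose and 2 fell (median 0.92): Tnfsf13b, the B cell survival factor BAFF, rose by 3.14 ± 0.36 (SE) and Il15, which sustains NK and memory CD8 T cells, fell by 0.51 (SE 0.14, adjusted p 0.00467). Of the 3 tested lymph node and follicle genes, Cxcl13 (3.89) and Ccl19 (1.79) rose and Cr2 did not pass (−0.13). Ccl21a, a defining lymph node transcript, was at 0 in all 20 libraries, which allows up to 0.00485 CPM over their summed counts, and Glycam1 had 1 count in all. The limit covers counted reads only, because reads shared between near-identical gene copies may go uncounted. It therefore sets no limit on lymph node RNA. Of 14 macrophage and monocyte markers 13 rose (median 3.13), while the dendritic cell markers had a median of 1.78. Of 4 neutrophil markers 2 rose (median 1.66), and of 3 innate lymphoid and mast cell markers 2 rose and 1 fell. Blood cell markers gave 1 higher of 6 and the 7 fat markers 1 lower.

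Summed over the 19 T cell genes, untreated controls held 9.13 ± 1.95 CPM and untreated oxalate libraries 75.8 ± 35.4 CPM (SD, n = 5 each). Il7r made up much of this: without it the oxalate sum was 49.9 ± 13.3 CPM and the control sum 8.73 ± 1.96 (SD, n = 5 each). The 8 NK and cytotoxic genes summed to 2.33 ± 0.23 and 5.71 ± 1.88 CPM (SD, n = 5 each), and no library of the latter group overlapped the former. Klrk1 and Nkg7 made up much of this difference. Their means were 0.553 and 0.68 CPM in untreated controls and 2.21 and 1.84 CPM in untreated oxalate libraries. The same means were 0.159 and 0.392 for Prf1, 0.221 and 0.423 for Klrb1c, and 0.201 and 0.343 for Eomes. They were 0.146 and 0.206 for Gzmb, 0.17 and 0.173 for Ncr1, and 0.197 and 0.124 for Gzma. The 6 B cell genes summed to 2.14 ± 0.322 and 10.7 ± 6.05 CPM, and without Cd22 to 1.80 ± 0.427 and 3.18 ± 0.618 CPM (SD, n = 5 each). The 4 plasma cell genes summed to 22.9 ± 1.27 and 90.1 ± 27 CPM (SD, n = 5 each). These sums are given as descriptions, and no test was made on them.

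**Figure D3:**
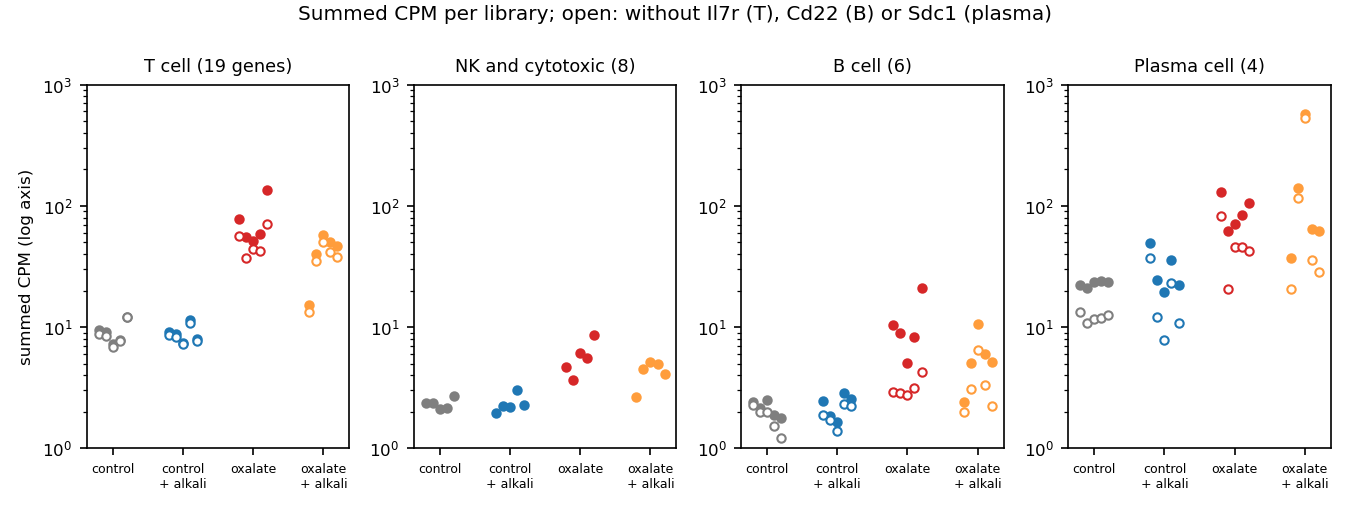
Summed CPM on a log axis in each of the 20 libraries for the T cell, NK and cytotoxic, B cell and plasma cell genes; open points leave out Il7r, Cd22 or Sdc1. T cell sums of all untreated oxalate libraries lay above all controls, and so did the B cell sums without Cd22, at 2.74 to 4.25 CPM against 1.21 to 2.29 CPM in untreated controls. Cd79b made up much of the B cell difference, at means of 0.805 CPM in untreated controls and 1.76 CPM in untreated oxalate libraries. The same means were 0.223 and 0.431 for Ms4a1, 0.135 and 0.406 for Blk, 0.372 and 0.399 for Cd79a, and 0.268 and 0.193 for Pax5.

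Few of these genes were called for alkali in oxalate mice, at a share (2.7%) near that of all genes. A gene that was not called is not thereby shown to be unchanged. Of the 37, 1 was called lower and 0 higher by edgeR against untreated oxalate mice, where 4.08% of all genes were called, 1.76% higher and 2.33% lower. Unadjusted p under 0.05 was reached by 8, DESeq2 called 0 higher and 2 lower (Il7r and Cd22), and the groups overlapped for all 37, where 1.91% of all genes lay wholly above and 1.61% wholly below. The log2 fold change was negative for 27 and positive for 10, with a median of −0.30. All 19 T cell genes had negative values, from −2.01 (Il7r) to −0.20 (Cd2), although Cd2 was at 0.03 without libraries 2 and 33.

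The called gene was Il7r. It stood at 1.89, 4.52, 7.83, 8.72 and 9.1 CPM in alkali-treated oxalate libraries, below 4 of the 5 untreated ones, and fell by 2.01 on the log2 scale (SE 0.47, adjusted p 0.0249). The call was lost without Oxalate 12 (−2.07, adjusted p 0.0507), Oxalate 40 (−1.29, adjusted p 0.0752) or Oxalate_late 30 (−1.91, adjusted p 0.0705), without Oxalate_late 2 and 33 together (−1.80, adjusted p 0.0613) and in a fit of these 2 groups alone (−2.0, adjusted p 0.17). Cd22 stood at 0.413, 1.99, 4.06, 2.69 and 2.97 CPM on alkali and came next (−1.63 ± 0.49, SE, adjusted p 0.0636). It was called without Oxalate 32 (−1.86, adjusted p 0.0205) or Oxalate_late 33 (−1.89, adjusted p 0.0384), and so was Sdc1 (−0.60, adjusted p 0.105; without these libraries −0.73, adjusted p 0.0247, and −0.76, adjusted p 0.0342).

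The other T cell genes were not called on alkali, and library 2 was the lowest in most of them. Cd3e stood at 0.723, 2.47, 3.5, 2.91 and 2.55 CPM and Cd4 at 0.999, 5.5, 5.8, 4.89 and 5.89 CPM, with log2 fold changes of −0.25 ± 0.30 and −0.60 ± 0.33 (SE). Cd8a stood at 2, 2.37, 3.83, 3.2 and 2.22 CPM (−0.69 ± 0.27, SE, adjusted p 0.145). Foxp3 stood at 0.276, 1.31, 1.64, 2.25 and 2.97 CPM (−0.55 ± 0.45, SE, adjusted p 0.525). Pdcd1 stood at 0.241, 0.379, 1.41, 1.3 and 0.86 CPM (−1.26 ± 0.52, SE, adjusted p 0.169). Ltb stood at 1.31, 3.71, 3.05, 3.18 and 3.34 CPM (−0.32 ± 0.24, SE). Gata3, at 16, 24.1, 26.3, 29.8 and 30.6 CPM, had 0.09 ± 0.14 (SE). Without libraries 2 and 33, 0 of the 37 genes were called in either direction.

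The killing and NK genes showed no call on alkali. Klrk1 had a log2 fold change of −0.69 ± 0.29 (SE, unadjusted p 0.0258, adjusted p 0.176) and Nkg7 of −0.51 ± 0.29 (SE, adjusted p 0.338). Gzma stood at 0.0689, 0.202, 0.164, 0.0272 and 0.104 CPM, Gzmb at 0.172, 0.101, 0.36, 0.163 and 0.0521 CPM, and Ifng at 0.103, 0.151, 0.131, 0.163 and 0.0782 CPM in alkali-treated oxalate libraries. Ncr1 stood at 0.172, 0.0252, 0.262, 0.163 and 0.235 CPM, where the second value is a single count. Klrb1c, at 0.276, 0.53, 0.262, 0.489 and 0.469 CPM, had a log2 fold change of −0.05 ± 0.46 (SE). The values of each gene overlapped those of the untreated oxalate libraries.

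The B and plasma cell genes on alkali turned on library 33. Ms4a1 stood at 0.344, 0.328, 0.884, 0.407 and 0.209 CPM, Cd79a at 0.31, 0.48, 1.54, 0.516 and 0.391 CPM, and Cd79b at 0.999, 1.39, 2.59, 1.41 and 1.15 CPM, with library 33 highest in each. Ighm stood at 8.44, 103, 469, 24.6 and 21.1 CPM, spanning both sides of the untreated oxalate range (1.84 ± 0.79, SE, adjusted p 0.193; 0.17 without library 33). Jchain stood at 11, 12.6, 59, 10.1 and 6.6 CPM (0.82 ± 0.49, SE), and without library 33 its log2 fold change was −0.15. Sdc1 stood at 16.6, 21.6, 40.8, 29.1 and 33.8 CPM. In library 33 the light chain Igkc was at 274 CPM and Ighg2c at 21.3 CPM, the highest of all 20, whereas Igha, the IgA constant region, was at 21.7 CPM against 20.4 to 57.6 CPM in the other libraries of its group. The Ighm to Igha ratio was 21.6 in library 33, and 0.147 to 2.2 in the other oxalate libraries but number 30, where it was 5.06. Library 33 also had the highest Adipoq of the series, at 35.4 CPM. Igkc was at 9.96 and 17.7 CPM in untreated control libraries 26 and 9, with Adipoq at 29.7 and 20.1 CPM. It was at 25.8 and 10.8 CPM in alkali-treated control libraries 1 and 4, with Adipoq at 2.91 and 18 CPM. Untreated oxalate library 32 held 61.4 CPM of Igkc and 3.12 CPM of Adipoq. In alkali-treated oxalate library 30 Igkc was at 111 CPM and Adipoq at 0. The part of Adipoq in these values was not tested.

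**Figure D4:**
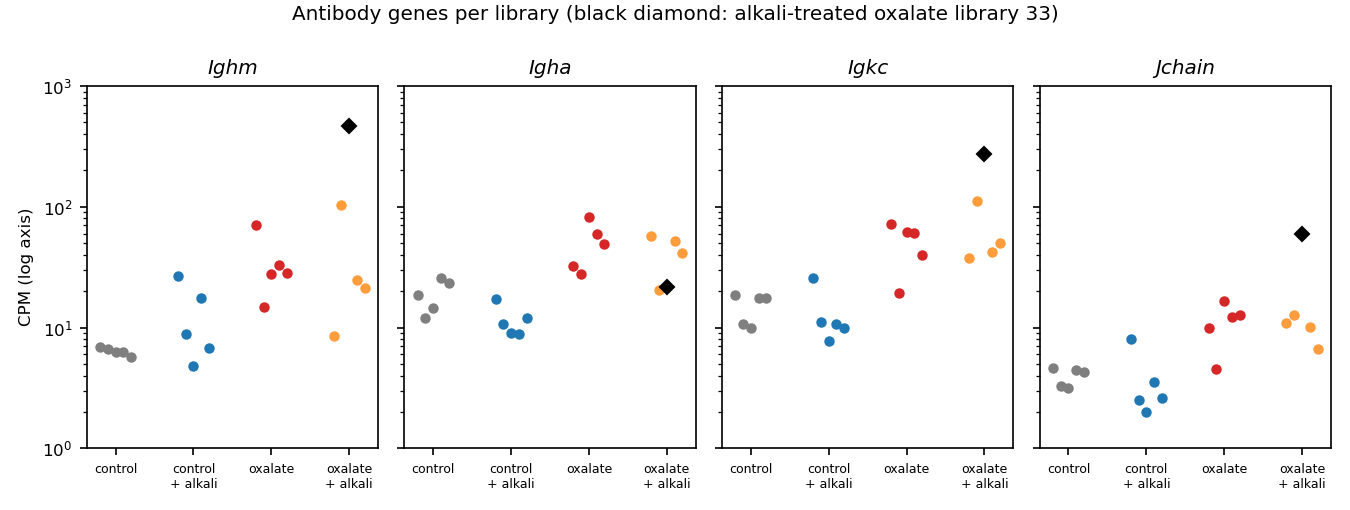
CPM on a log axis of Ighm, Igha, Igkc and Jchain in each library by group; the black diamond is alkali-treated oxalate library 33. It was highest of the 20 in Ighm, Igkc and Jchain, at 469, 274 and 59 CPM, and in the lower part of its group in Igha.

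Genes outside the 41 moved with alkali in oxalate mice as follows. Among other T cell genes 1 of 26 was called lower, Ccr7, a homing receptor (−1.24, adjusted p 0.0434). Among exhaustion and checkpoint genes, ligands included, 0 of 9 were called, all 9 with negative values and 4 at unadjusted p under 0.05. Among other NK and cytotoxic genes Tyrobp (−1.38), Runx3 (−1.07) and Ccl5 (−0.83) fell, 3 of 13. Among chemokines and receptors 4 of 16 fell: Cxcl10 (−1.51, adjusted p 0.00814), which draws activated T cells, Ccr7, Ccl5 and Cxcr4 (−1.08). Macrophage markers had 3 of 14 lower (Cd14, Lyz2 and Itgam; median −0.93), dendritic cell markers 2 of 10 (Bst2 and Itgax; median −0.27). None of the 13 other B cell, 16 other plasma cell or 5 gamma-delta genes was called, with 6, 2 and 0 at unadjusted p under 0.05.

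Il7r and Cd22 were set beside other genes across the 10 oxalate libraries, a description chosen after their values were seen. For each of 23 lymphocyte genes with at least 10 counts in every oxalate library, the SD of the log2 ratio to the summed CD3 genes (Cd3e, Cd3d and Cd3g) was set beside the SD of the log2 ratio to Cd68, a lysosomal marker of macrophages. Cd68 ranged from 6.68 to 166 CPM over these libraries and Cd3e from 0.723 to 3.91 CPM, so a gene that varied little had the smaller SD to CD3 whatever its source, as did Gata3 (0.58 against 1.21). A smaller SD to CD3 therefore says nothing of where a gene was made. Lck had an SD of 0.16 to CD3 and 0.88 to Cd68, and Cd4 0.46 and 0.63. The SD to Cd68 was the smaller for Il7r (0.29 against 1.03) and Cd22 (0.31 against 0.93). Cd68 stood at 89.1, 75.2, 23.9, 53.1 and 166 CPM in untreated and at 6.68, 18.7, 35.1, 32.7 and 48.3 CPM in alkali-treated oxalate libraries. Il7r counts were 0.188 to 0.399 of Cd68 counts, and 0.699 to 5.8 of summed CD3 counts. Cd22 counts were 0.0615 to 0.116 of Cd68 counts, and the Il7r to Cd22 ratio was 2.91 to 3.97 in untreated and 1.93 to 4.58 in alkali-treated oxalate libraries. The untreated oxalate libraries had the same order in Cd68 as in Il7r, Cd22, Cd4, Cd28, Icos, Cd247 and Sdc1. All ratios come from the same libraries and share a denominator. Of the 14 macrophage and monocyte markers, which summed to 770 to 2990 CPM in untreated oxalate libraries, 308 to 993 CPM on alkali and 137 to 183 CPM in untreated controls, 13 rose with oxalate; their part in the Il7r and Cd22 values was not tested.

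**Figure D5:**
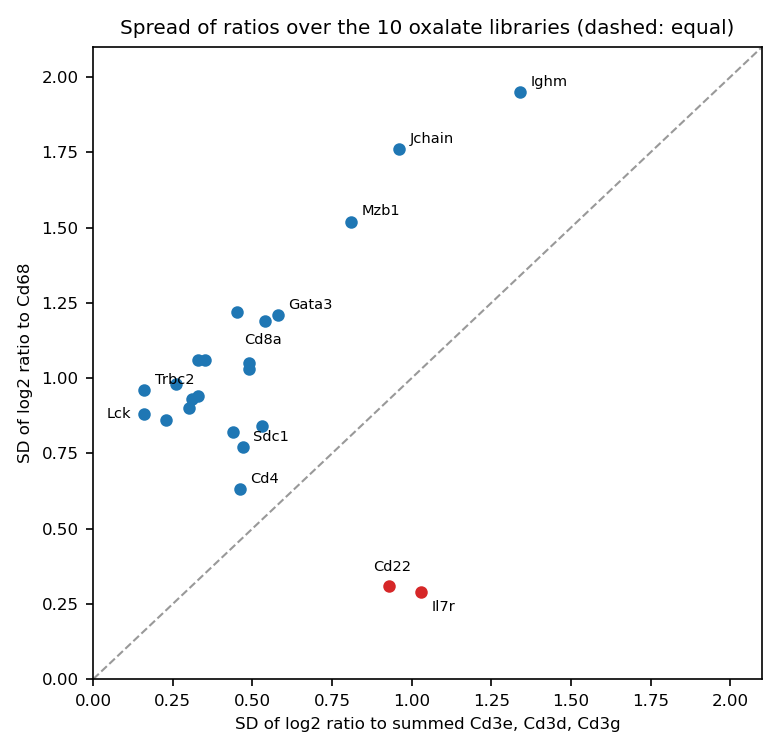
SD over the 10 oxalate libraries of each gene's log2 ratio to summed Cd3e, Cd3d and Cd3g (horizontal) and to Cd68 (vertical), for 23 lymphocyte genes; the dashed line marks equal SDs. Il7r and Cd22 lie below the line, and the other genes lie above it, where the wide range of Cd68 places any gene that varied little.

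In control mice, alkali gave 0 calls among the 37 genes by edgeR, as among all 15430 (0%), with 1 member at unadjusted p under 0.05 (Ctla4) and 0 called by DESeq2. The groups overlapped for all 37 genes, where 0.557% of all genes lay wholly above and 0.467% wholly below. The median log2 fold change was −0.03, with 17 positive and 20 negative. Cd3e stood at 0.291, 0.347, 0.47, 0.66 and 0.484 CPM, Cd4 at 0.545, 0.625, 0.72, 0.88 and 0.558 CPM, and Cd8a at 1.71, 1.49, 1.13, 1.87 and 1.45 CPM. Il7r stood at 0.617, 0.451, 0.219, 0.66 and 0.335 CPM and Cd22 at 0.581, 0.139, 0.282, 0.55 and 0.335 CPM. The values of each gene overlapped those of untreated controls. Ctla4 had no count in any alkali-treated control, and Foxp3 stood at 0.145, 0.139, 0, 0.147 and 0.0372 CPM and Pdcd1 at 0, 0.174, 0.0313, 0.0733 and 0 CPM. Gzma stood at 0.0363, 0.208, 0.125, 0.366 and 0.335 CPM, Gzmb at 0.0726, 0.104, 0.0626, 0.44 and 0.0372 CPM, and Ifng at 0.0363, 0.0347, 0.0939, 0.11 and 0.0744 CPM. Ncr1 stood at 0.0726, 0.104, 0.157, 0.183 and 0.0372 CPM and Klrb1c at 0.145, 0.243, 0.0626, 0.0366 and 0.484 CPM. The granzymes and NK receptors overlapped the untreated controls. Ms4a1 stood at 0.254, 0.208, 0.282, 0.586 and 0.558 CPM, Cd79a at 0.327, 0.312, 0.219, 0.586 and 0.261 CPM and Cd79b at 0.908, 0.868, 0.657, 0.55 and 0.893 CPM. Ighm stood at 26.6, 8.89, 4.76, 17.7 and 6.74 CPM, a wider span than in untreated controls, and Jchain at 7.99, 2.5, 2, 3.52 and 2.61 CPM, with library 1 highest in both. Sdc1 stood at 12.7, 12.4, 11.5, 12.5 and 11.7 CPM, Gata3 at 15.3, 17, 17.4, 15.2 and 18.5 CPM, and Ltb at 0.726, 0.59, 0.595, 0.696 and 0.447 CPM.

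With both groups on alkali, 29 of the 37 genes were still called higher in oxalate than in control mice and 0 lower, against 40.4% of all genes called, 23.4% higher and 17.1% lower. Of the called genes 57.8% were higher, and with total counts in place of TMM 85.6%, with a median over all genes of 0.24 and 31 of the 37 genes higher. The median log2 fold change was 1.82, the same with Ctla4 at its lower bound, and 37 of 37 values were positive. The oxalate libraries lay wholly above the controls for 20 genes, against 10.8% of all tested genes. All 29 were also called without alkali, and Prf1 and Blk were called only there; the difference was not significant for either (interaction adjusted p 0.94 and 0.952). Il7r rose by 3.82 ± 0.59, Foxp3 by 4.15 ± 0.61, Pdcd1 by 3.81 ± 0.74, Cd4 by 2.79 ± 0.38 and Cd3e by 2.43 ± 0.34 (SE). Ctla4, at 0.172 to 0.923 CPM against 0 in every control, was at least 30.2-fold higher when the controls are set at 3 counts over the group. Cd22 rose by 2.68 ± 0.58 (SE). Tbx21, at 1.82 ± 0.42 (SE), lay wholly above the controls here.

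Some of these calls rested on library 33. Ighm rose by 3.28 ± 0.84 (SE, adjusted p 0.00702), and without library 33 by 1.61 (adjusted p 0.0537). Cd79b rose by 0.95 ± 0.29 (SE, adjusted p 0.0141), and without library 33 its value was 0.68 (adjusted p 0.06). Cd8a rose by 0.83 ± 0.28 (SE, adjusted p 0.0235), with values of 0.68 without library 33 (adjusted p 0.0747), 0.77 without Oxalate_late 5 (adjusted p 0.054) and 0.74 without Control_late 37 (adjusted p 0.0618). Jchain rose by 2.42 ± 0.53 (SE, adjusted p 0.0024), and without library 33 by 1.44 (adjusted p 0.00783).

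Both disease comparisons use libraries of their own, so the effect of alkali on the oxalate difference could be tested as an interaction. By edgeR 0 of the 37 genes passed, as of all genes (0%), and DESeq2 called 0 of the 37; unadjusted p under 0.05 was reached by Il7r (−2.19 ± 0.88, SE, adjusted p 0.478), Trbc1 (−1.02 ± 0.42), Sdc1 (−0.75 ± 0.30) and Cd22 (−1.78 ± 0.83). The fold was smaller on alkali for 26 of the 37 genes, with a median interaction of −0.24. The T cell sum was 8.96 ± 1.58 CPM in alkali-treated controls and 41.9 ± 16.3 CPM in alkali-treated oxalate libraries, and without Il7r 8.51 ± 1.41 and 35.5 ± 13.6 CPM (SD, n = 5 each). The B cell sum without Cd22 was 1.90 ± 0.384 and 3.42 ± 1.80 CPM, and the NK and cytotoxic sum 2.34 ± 0.411 and 4.26 ± 0.996 CPM (SD, n = 5 each). The plasma cell sum was 30.2 ± 12.4 and 175 ± 225 CPM (SD, n = 5 each), with library 33 at 572 CPM. Without Sdc1 it was 18.1 ± 11.9 and 147 ± 219 CPM (SD, n = 5 each).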

How the data were processed

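Whole-number counts per gene were deposited for each library, made by the authors with bcl2fastq 2.19, Trimmomatic, STAR 2.7.1 and featureCounts, per the submitters' processing notes. These name GRCh38.p5, a human build, although all identifiers are mouse genes, and the strand setting is not given in the sources used here, so overlapping genes are uncertain. GENCODE M21 (GRCm38) matched 25587 of 25700 identifiers; the other 113 held at most 0.0541% of a library's counts. Genes were kept by filterByExpr (minimum count 10), scaled by TMM and fitted in 1 model of 4 group means with edgeR 4.0.16 (robust quasi-likelihood, R 4.3.3), tested on simulated data. The SE is the log2 fold change over the square root of F. DESeq2 1.42.0, other scalings and filters and left-out libraries were alternatives. Gene lists and members were chosen with earlier results of these data known. All 41 genes are accounted for: 20 chosen genes and any gene called for alkali with all values, the others by fold, and from each further list up to 4 genes of smallest p, of which some are not reported here. No 2 libraries of a group were alike within counting noise (chi-square per gene at least 9.54).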

Additional observations from a re-analysis of the deposited data

Results flagged for a closer look

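Of 164 tests for a library far from the other 4 of its group, 9 passed, where chance gives about 8.2 (1 in 20). In alkali-treated oxalate library 2, Cd3e (0.723 CPM), Cd4 (0.999), Lck (1.76), Cd2 (0.482), Ltb (1.31) and Trbc1 (0.792 CPM) lay far below the others of the group. Ltb was also far below in untreated oxalate library 3, at 2.3 CPM, and Nkg7 in untreated control library 26, at 0.24 CPM. Ncr1 in alkali-treated oxalate library 30, at 0.0252 CPM, rested on 1 count.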

How the results depend on the processing

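Of 32 alternatives, 20 left out a library each, and 3, leaving out the 6 libraries with Adipoq above 1 CPM, leaving out alkali-treated oxalate libraries 2 and 33, and sums without Il7r, Cd22 or Sdc1, were chosen after seeing the data. Without alkali the genes called higher numbered 27 to 33 (28 to 31 with a library left out) and on alkali 25 to 31 (26 to 30), with 0 lower throughout; a strict filter tested 28 of the 41. For alkali in oxalate mice the genes called lower numbered 2 by DESeq2, 0 in the 2 groups alone, 3 without the Adipoq libraries, 0 without libraries 2 and 33, and 0 to 3 with a library left out; all genes called, 630, became 1203, 29, 1263, 712 and 185 to 1160. The B cell sum's log2 ratio of oxalate to control fell from 2.32 to 0.82 without Cd22. Without the Adipoq libraries, Cd8a (0.82, adjusted p 0.0516), Gata3 (0.48, 0.0611), Klrk1 (1.15, 0.0686) and Cd79b (0.59, 0.111) lost their calls on alkali.

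Only uncalled genes turned direction, and the cause was not tested. Without the Adipoq libraries, Cd79a was −0.31 for oxalate without alkali, and on alkali Eomes was −0.09, Ms4a1 −0.14 and Mzb1 −0.0046; for alkali in oxalate mice Tbx21 was −0.30, Eomes −0.02, Ms4a1 −0.34 and Blk −0.31. Without libraries 2 and 33, Ms4a1 (−0.25) and Mzb1 (−0.34) turned on alkali, and for alkali in oxalate mice Cd2 (0.03), Tbx21 (−0.21), Prf1 (0.06), Klrb1c (0.23), Ms4a1 (−0.44), Blk (−0.09) and Jchain (−0.20). Ms4a1 there was −2.8e-06 by DESeq2, −0.0048 with total counts and −0.00066 with RLE, and Mzb1 on alkali −0.03 without a filter. With a library left out, values ran from −0.26 to 0.36 for Cd79a without alkali. On alkali they ran from −0.22 to 0.40 for Ms4a1 and −0.41 to 0.25 for Mzb1. For alkali in oxalate mice they ran from −0.36 to 0.02 for Cd2, −0.35 to 0.32 for Tbx21, −0.22 to 0.20 for Klrb1c, −0.09 to 0.57 for Eomes, −0.41 to 0.19 for Ms4a1, −0.19 to 0.52 for Blk, −0.15 to 1.04 for Jchain and −0.03 to 0.59 for Mzb1. Depth left Ifng, Gzma, Gzmb and Ncr1 untested. No paired analysis was possible because the groups share no library numbers.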
